A study of Mus musculus with 8 samples.

Results

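Wild-type OT-I CD8+ T cells of the Tim-3+ subset were set against all wild-type OT-I cells from the same tumor model. The comparison takes every library labelled WT, which is 4 of the 8 libraries of the series: 2 of the Tim-3+ subset, called Ttex in the labels and Terminal in the library names, and 2 of all sorted OT-I cells. OT-I cells are CD8+ T cells whose transgenic receptor recognises a peptide of ovalbumin. B16-OVA, the tumor, is a melanoma line of the mouse made to express that protein. In both groups the cells were wild type for Zbtb32, had been injected as naive cells into B6 hosts together with Zbtb32-/- OT-I cells 1 day before subcutaneous B16-OVA implantation, and were flow sorted from the tumors 30 days later. The labels do not give the animals' age. The labels give no Tim-3 gate for the all OT-I sort, so it would include Tim-3+ cells. The 2 replicates of each group are not tied to separate animals in the labels, and their spread may be technical. In these bulk libraries, a higher share of cells of a type and more RNA per cell cannot be told apart.

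Tim-3, encoded by Havcr2, is an inhibitory receptor that T cells acquire under persistent antigen. In chronic infection and tumors, exhausted CD8+ T cells are usually divided into a progenitor state that keeps the transcription factor TCF1 (Tcf7) with memory-type genes, and a terminally differentiated state with high Tim-3, PD-1 and effector molecules and little TCF1. The transcription factor Tox maintains the exhausted state in both.

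The authors deposited a separate table for each population, in different units, so levels were brought to a common scale before they were compared. Ttex normalized counts were divided by gene length, all OT-I values (FPKM) were already per length, and each library was rescaled to a total of 1000000 over the 11238 genes that both tables hold. This level, in transcripts per 1000000, is called TPM below. Each gene then received its percentile within its library, with 100 the highest, and the shift is the mean Ttex percentile minus the mean all OT-I percentile. A large rank shift was a shift of at least 20 points with no overlap between the 2 Ttex and the 2 all OT-I libraries, among the 10139 genes with a mean of at least 1 TPM. A gene near the top of the ranking cannot move up by 20 points, so log2 ratios of mean TPM + 0.1 (Ttex over all OT-I) are given beside the shifts. Population, table, and any difference in library preparation or sequencing run cannot be told apart here. The rank shifts therefore carry no test and describe these 4 libraries.

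The 2 Ttex libraries held 59.2 and 54.7 M recovered reads, against 20.1 and 21.05 M in the all OT-I libraries. Replicates ranked the genes almost alike, with Spearman's rho across genes of 0.996 between the Ttex libraries and 0.993 between the all OT-I libraries. It was 0.911 to 0.913 between a Ttex and an all OT-I library. The median absolute difference between replicates was 1.504 points in Ttex and 1.99 points in all OT-I cells, and only 2 and 1 genes differed by 20 points or more. Between the populations the median absolute shift was 6.29 points, and 861 genes had a large rank shift. Of the genes tested, 689 (6.8%) ranked higher in Ttex and 172 (1.7%) ranked lower. At any size of shift, 3152 genes (31.1%) lay above all OT-I in both Ttex libraries and 5167 (51%) lay below, and the median shift over all genes was -1.88 points (median log2 ratio -0.19). By level instead of rank, at a log2 ratio of at least 2 in size and no overlap, 517 genes (5.1%) lay higher and 126 (1.24%) lower in Ttex. A count test on the recovered reads (edgeR's quasi-likelihood test, Benjamini-Hochberg adjustment), which takes population and table together, called 29.4% of 11205 genes higher and 26.7% lower in Ttex and was not used further.

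**Figure D1:**
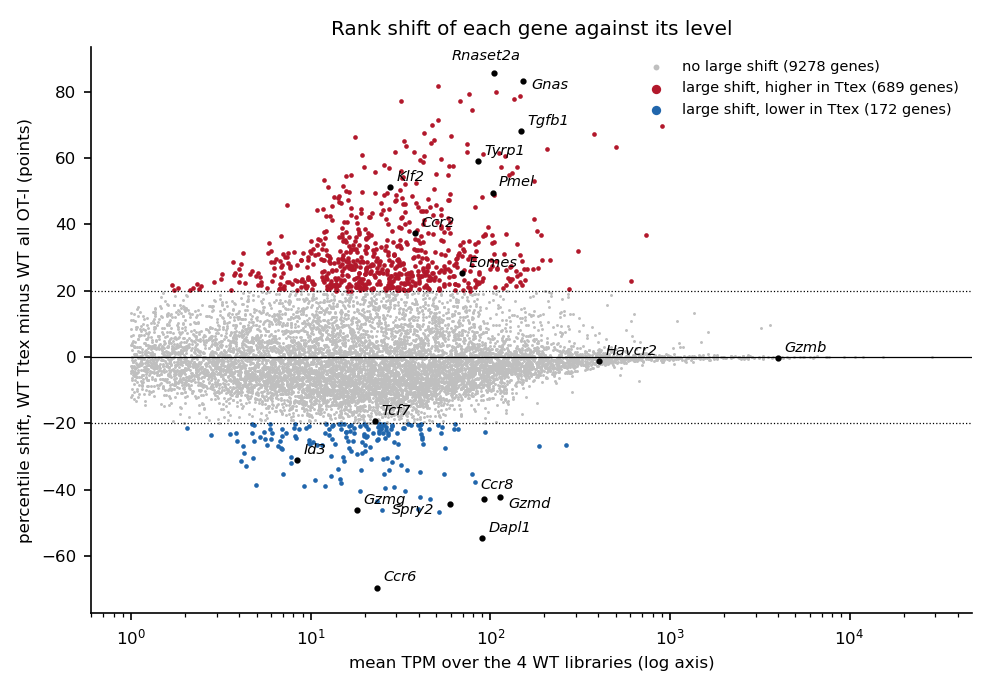
Percentile shift (Ttex minus all OT-I, points) of each of the 10139 tested genes against its mean TPM over the 4 WT libraries (log axis), with the 20-point limits dotted. The 689 genes higher in Ttex reach shifts above 80 points, the 172 genes lower in Ttex end with Ccr6 at -69.5, and genes at the highest levels, such as Gzmb, lie near 0.

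Havcr2, which encodes the marker used for the sort, was not higher in the sorted subset. It stood at 306 and 352 TPM in the Ttex libraries, against 422 and 532 TPM in the all OT-I libraries (chromosome 11, 46454935 to 46481255, mm10, plus strand). The groups did not overlap, the Ttex pair was the lower, and the shift was -1.25 points (percentiles 95.6 and 95.9 in Ttex, 96.6 and 97.5 in all OT-I; log2 ratio -0.54). Havcr2 RNA goes against the label of the Tim-3+ libraries in direction, although the gene stood near the top of the ranking in all 4 libraries. The label as CD8+ T cells fitted the markers: Cd8a was at 1067 and 1169 TPM in Ttex cells and at 1143 and 1162 TPM in all OT-I cells. In the Ttex table the receptor segments with the most counts were Trbv12-1 (mean 21943 normalized counts), Trav14n-1 (14239) and Trav14d-1 (14215), and the next of the 40 segments, Trav14n-2, had 1185. Receptor segments are not among the genes shared with the all OT-I table and were not compared.

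Pdcd1, Tigit and Lag3, which encode further inhibitory receptors of exhaustion, were also abundant in both populations. Pdcd1 (PD-1) was at 1206 and 1322 TPM in Ttex cells, against 2196 and 2619 TPM in all OT-I cells (shift -0.59, log2 ratio -0.93). Tigit was at 928 and 927 TPM in Ttex cells, against 2373 and 2413 TPM in all OT-I cells (shift -0.99, log2 ratio -1.37). Both lay lower in Ttex without overlap, by log2 ratios larger than that of all genes together. Lag3 overlapped between the groups, at 1356 and 1374 TPM in Ttex and 1151 and 1420 TPM in all OT-I cells. Entpd1, the gene of the ectonucleotidase CD39 that marks terminally exhausted cells, was at 61.3 and 66.9 TPM in Ttex cells, against 81.7 and 99.9 TPM in all OT-I cells (shift -5.54). Of the 18 inhibitory receptors tested, 12 lay below all OT-I in both Ttex libraries and 3 above, where 51% of all genes tested lay below and 31.1% above. The median shift was -2.49 points, beside -1.88 for all genes.

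3 receptors of this list had a large rank shift, 2 higher and 1 lower (6.8% and 1.7% of all genes). Klrg1, an inhibitory receptor of differentiated effector cells, was at 62.1 and 69.4 TPM in Ttex cells, against 21.6 and 24.0 TPM in all OT-I cells (shift 21.2). Lilrb4a, an inhibitory receptor of the leukocyte immunoglobulin-like family, was at 102 and 129 TPM in Ttex, against 18.6 and 27.0 TPM (shift 30.3). It shares 35.9% of its exon bases with another annotated gene, and such genes are treated below. Cd200r1, the receptor for CD200, went the other way, at 12.7 and 12.5 TPM in Ttex and 51.6 and 59.8 TPM in all OT-I cells (shift -34.0).

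**Figure D2:**
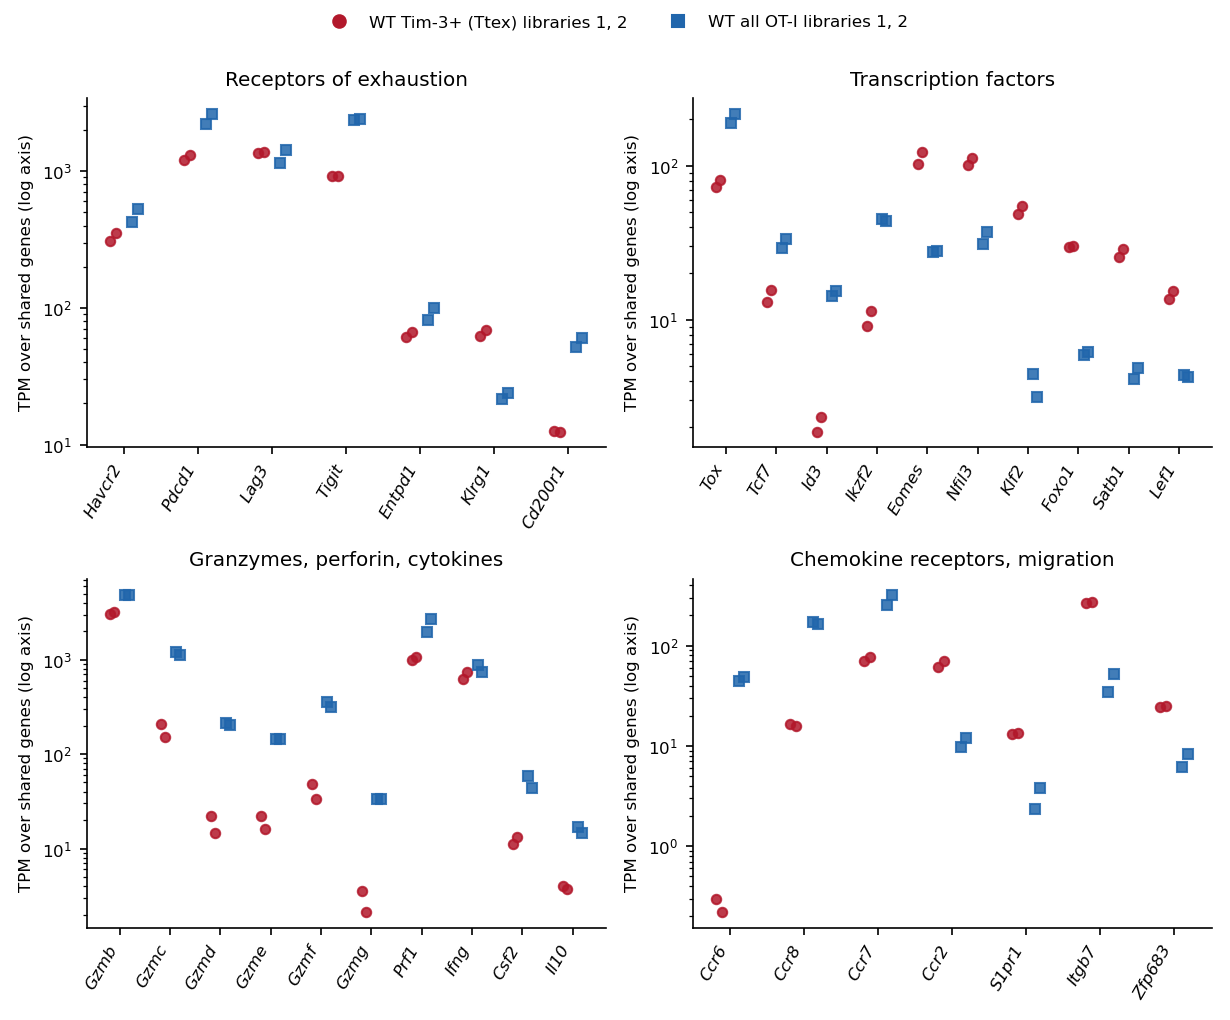
TPM (log axes) of T cell genes in each library, with the 2 Ttex libraries as red circles on the left of each gene and the 2 all OT-I libraries as blue squares on the right. Havcr2, Pdcd1, Tigit, Tox and Tcf7 lie lower in Ttex, Eomes, Klf2, Foxo1 and Satb1 lie higher, and Ccr6 has the widest gap.

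Among the transcription factors of exhaustion, Tox was at 72.9 and 80.5 TPM in Ttex cells, against 188 and 217 TPM in all OT-I cells (shift -10.9, log2 ratio -1.40). Eomes, a T-box factor associated with terminal exhaustion, was at 103 and 122 TPM in Ttex, against 27.4 and 27.8 TPM in all OT-I cells. This was a large rank shift of 25.4 points, and Eomes shares exon bases with another gene. Nfil3, a basic leucine zipper factor that induces Tim-3 in CD4+ T cells, was at 101 and 113 TPM in Ttex, against 31.2 and 37.1 TPM (shift 20.3), just past the threshold and just under it without all OT-I replicate 1 (19.9). Ikzf2, which encodes Helios, was at 9.16 and 11.5 TPM in Ttex, against 45.3 and 43.5 TPM in all OT-I cells (shift -34.0). Of the 22 factors tested, 2 ranked higher and 1 lower by a large shift (6.8% and 1.7% of all genes). Without overlap, 9 lay above and 8 below (31.1% and 51% of all genes), and the median shift was 2.28 points. Batf, an AP-1 factor of effector and exhausted cells, was at 192 and 187 TPM in Ttex against 414 and 399 TPM in all OT-I (shift -4.13), and Zbtb32 itself was at 88.5 and 101 TPM in Ttex against 218 and 253 TPM in all OT-I (shift -8.57).

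Genes of progenitor exhausted and memory cells did not move as a block. Tcf7 was at 13.0 and 15.5 TPM in Ttex cells, against 29.1 and 33.6 TPM in all OT-I cells (chromosome 11, 52252371 to 52283014, minus strand). Its shift of -19.4 points fell just short of the threshold, with no overlap between the groups and a log2 ratio of -1.13. Slamf6, a surface marker of the progenitor state, was at 4.42 and 4.27 TPM in Ttex, against 10.8 and 12.5 TPM (shift -17.6). Id3, a transcriptional regulator of memory precursors, was at 1.88 and 2.34 TPM in Ttex, against 14.2 and 15.3 TPM (shift -31.0). Dapl1, which marks naive and memory-like CD8+ T cells, had the second lowest shift of the named genes, at 9.68 and 8.33 TPM in Ttex, against 198 and 143 TPM in all OT-I cells (shift -54.6). These 4 genes were lower in both Ttex libraries, but only Id3 and Dapl1 passed the 20-point limit.

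Other genes of the same list ranked higher in Ttex. Klf2, which encodes a quiescence factor that drives S1pr1 and tissue exit, was at 48.2 and 55.0 TPM in Ttex cells, against 4.44 and 3.14 TPM in all OT-I cells (shift 51.2, log2 ratio 3.73). S1pr1, the receptor for sphingosine 1-phosphate, was at 13.0 and 13.4 TPM in Ttex, against 2.37 and 3.81 TPM (shift 23.3). Foxo1, a factor upstream of Klf2 and Tcf7, was at 29.6 and 30.2 TPM in Ttex, against 5.86 and 6.19 TPM (shift 32.7). In each of these genes the 2 groups lay far apart against the spread of their replicates. Satb1, a chromatin organiser, had a shift of 34.6 points, and Lef1, the TCF1 homolog, one of 20.96 points. Of the 28 genes tested, 5 ranked higher and 2 lower by a large shift (6.8% and 1.7% of all genes). In the list 13 lay above and 13 below without overlap (31.1% and 51% of all genes), and the median was -0.06 points. Among the 17 members that share no exon base with another gene, large shifts numbered 2 higher and 2 lower (5.96% and 2.1% of all such genes). Il7r, which encodes the interleukin-7 receptor of memory cells, was at 17.99 and 17.2 TPM in Ttex and 12.1 and 14.5 TPM in all OT-I cells (shift 4.58).

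Most cytotoxic genes lay lower in Ttex. Of the 20 tested, 15 lay below all OT-I in both Ttex libraries and 3 above (51% and 31.1% of all genes). By a large shift, 4 ranked lower and 1 higher (1.7% and 6.8% of all genes). Gzmb, which encodes granzyme B, was at 3034 and 3186 TPM in Ttex cells, against 4878 and 4860 TPM in all OT-I cells (shift -0.21, log2 ratio -0.65). Prf1, the perforin gene, was at 998 and 1074 TPM in Ttex, against 1969 and 2657 TPM (shift -0.84, log2 ratio -1.16). Ifng was at 626 and 731 TPM in Ttex and 869 and 734 TPM in all OT-I cells, and the nearest libraries of the 2 groups differed by less than the replicates within either group. Gzmd, Gzme, Gzmf and Gzmg, which encode granzymes found in mice and not in humans, gave the 4 large shifts of the list to lower ranks. Gzmd was at 21.8 and 14.5 TPM in Ttex, against 213 and 205 TPM in all OT-I cells (shift -42.3). Gzmg was at 3.59 and 2.12 TPM in Ttex, against 33.6 and 33.2 TPM (shift -46.1, or -22.5 when ranked without division by length). Gzme (shift -37.7) and Gzmf (shift -26.7) moved alike, and Gzmc, already near the top of the ranking, was at 209 and 152 TPM in Ttex against 1202 and 1125 TPM in all OT-I (shift -7.12, log2 ratio -2.69). These genes are close paralogs in a single cluster on chromosome 14, so reads may be split among them. Lamp1, the lysosomal membrane protein exposed on degranulation, was the only one of the 20 cytotoxic genes with a large shift upward. It was at 153 and 180 TPM in Ttex against 19.7 and 19.1 TPM in all OT-I (shift 37.0). Lamp1 shares exon bases with another gene.

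Among 24 chemokine receptor, adhesion and residency genes, 4 ranked higher and 2 lower by a large shift (6.8% and 1.7% of all genes). In this list 10 lay above and 11 below without overlap (31.1% and 51% of all genes). Ccr6, the receptor for CCL20, had the most negative shift of all named genes. It was at 0.30 and 0.22 TPM in Ttex cells (14 and 9 reads), against 44.3 and 49.0 TPM in all OT-I cells (726 and 784 reads), with a shift of -69.5 points (chromosome 17, 8236043 to 8257141, plus strand). Ccr8, the receptor for CCL1, was at 16.7 and 15.8 TPM in Ttex, against 172 and 166 TPM in all OT-I (shift -42.8). Ccr7, the lymph node homing receptor, was at 69.8 and 76.9 TPM in Ttex, against 257 and 323 TPM (shift -13.8, log2 ratio -1.98). The 4 that ranked higher were Ccr2, an inflammatory homing receptor (61.2 and 69.9 TPM in Ttex, against 9.86 and 12.1 TPM in all OT-I; shift 37.4), Zfp683, which encodes the residency factor Hobit (24.8), S1pr1 and the integrin gene Itgb7 (23.2). Ranked without division by length, Zfp683 had a shift of 14.0 points. Cxcr6, the receptor most used by tumor-resident T cells, was at 1095 and 1347 TPM in Ttex and 1743 and 1899 TPM in all OT-I cells (shift -0.44).

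Of the 22 cytokines and chemokines, 1 ranked higher and 3 lower by a large shift (6.8% and 1.7% of all genes). Tgfb1, which encodes transforming growth factor beta 1, had the widest shift. It was at 257 and 324 TPM in Ttex cells, against 4.63 and 5.26 TPM in all OT-I cells (shift 68.1, log2 ratio 5.85), with no exon base shared with another gene (chromosome 7, 25687002 to 25705077, plus strand). The 3 that ranked lower were Csf2, the gene of the growth factor GM-CSF (11.2 and 13.2 TPM in Ttex, against 58.6 and 43.7 TPM; shift -32.5), Ccl9 (-26.2) and Il10, the gene of an anti-inflammatory cytokine (4.04 and 3.71 TPM in Ttex, against 16.9 and 14.7 TPM; shift -25.9). Ranked without division by length, Csf2 had a shift of -17.3 and Il10 of -12.7 points. Ccl5, a chemokine gene of effector cells, was so abundant that its rank hardly moved (0.37 points), yet its level was 11495 and 9882 TPM in Ttex, against 2554 and 2360.5 TPM in all OT-I (log2 ratio 2.12).

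Of the 14 NK-type receptors, Klrc2, an activating receptor for Qa-1 in mice, was higher (18.7 and 21.5 TPM in Ttex, against 6.94 and 5.88 TPM; shift 21.8), as was Klrg1, and Klri2 was lower (shift -26.3). Klrc2 had a shift of 19.2 points without all OT-I replicate 2. The list had 2 of 14 ranking higher and 1 lower by a large shift (6.8% and 1.7% of all genes). In it 3 lay above and 9 below without overlap (31.1% and 51% of all genes). None of the 16 costimulatory receptors had a large shift. The most abundant were Tnfrsf9, which encodes 4-1BB, at 814 and 887 TPM in Ttex and 1743 and 1775 TPM in all OT-I cells, and Cd2, at 699 and 841 TPM in Ttex and 961 and 942 TPM in all OT-I. Of 33 T cell receptor signalling genes, Dusp2 alone had a large shift; this phosphatase gene of activated lymphocytes was at 613 and 547 TPM in Ttex, against 31.1 and 34.4 TPM in all OT-I (shift 32.0, or 52.0 when ranked without division by length; log2 ratio 4.14).

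**Figure D3:**
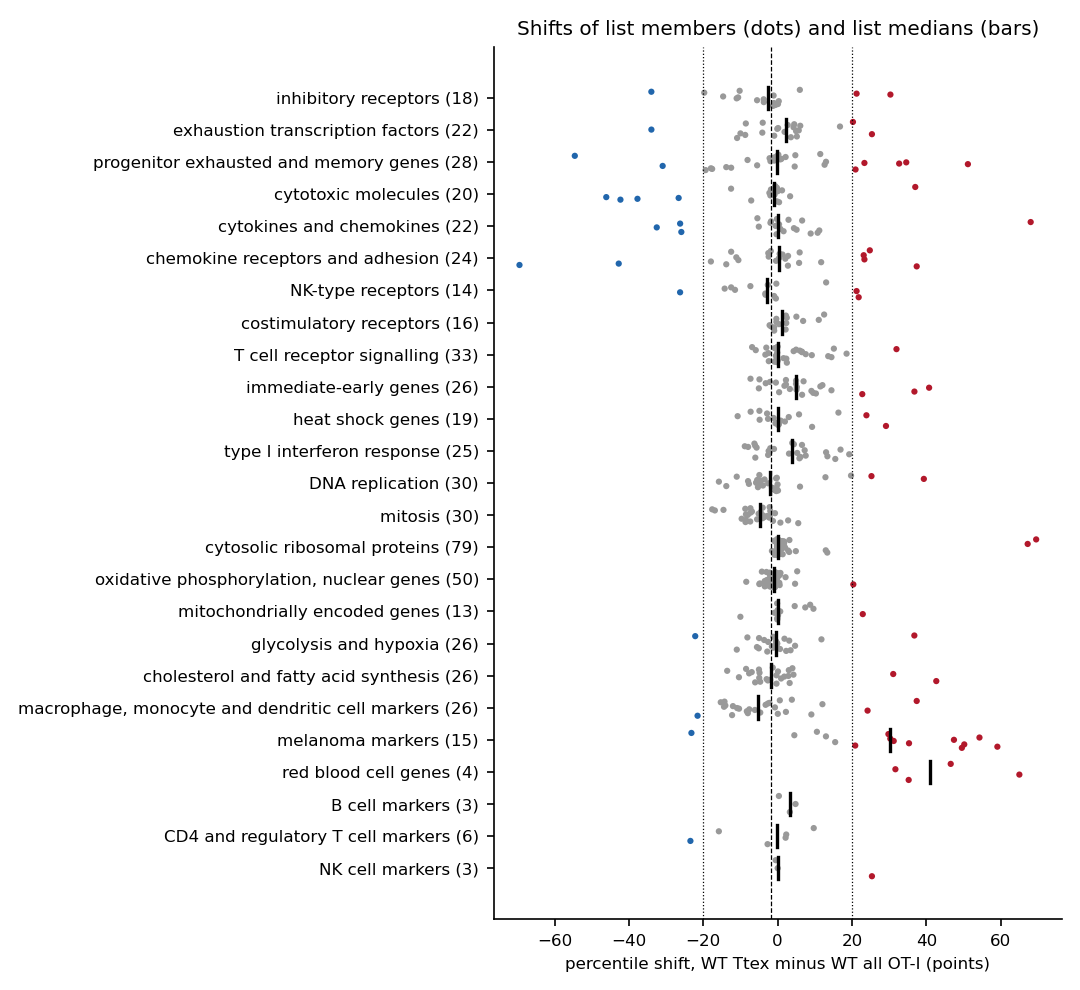
Percentile shift (Ttex minus all OT-I, points) of each tested member of the 25 lists with at least 3 tested genes, with the number tested in brackets, list medians as black bars, the 20-point limits dotted and the median of all genes dashed. Red points are large shifts to higher and blue points to lower ranks in Ttex, and the melanoma and red blood cell lists are those whose medians lie above 20 points.

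Immediate-early genes, which cells induce on stimulation or handling, were mostly higher in Ttex. Of 26 tested, 18 lay above all OT-I in both Ttex libraries and 5 below, against 31.1% above and 51% below over all genes. The median shift was 5.01 points, beside -1.88 over all genes. Large shifts to higher ranks numbered 3 of the 26 (6.8% of all genes). Ier5 (97.0 and 80.9 TPM in Ttex, against 13.8 and 9.87 TPM in all OT-I; shift 40.8), Jund (shift 36.8, or 60.9 when ranked without division by length) and Fosb (22.8) had large shifts, and 52.6% of Jund's exon bases are shared with another gene. Fos was at 253 and 262 TPM in Ttex and 112 and 137 TPM in all OT-I cells (shift 6.57). The heat shock list had 2 of 19 genes with a large shift to higher ranks (6.8% of all genes), the chaperone gene Hspa1b (29.2) and its co-chaperone Bag3 (23.9). Among 25 type I interferon response genes none had one, with 12 above and 9 below without overlap (31.1% and 51% of all genes).

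Genes of the cell cycle had few large shifts, and most mitosis genes lay lower in Ttex. Mki67, the proliferation marker, was at 117 and 121 TPM in Ttex cells, against 74.6 and 87.7 TPM in all OT-I cells (shift 5.54). Of the 30 mitosis genes none had a large shift, but 25 lay below all OT-I in both Ttex libraries and 2 above, against 51% below and 31.1% above over all genes. Their median shift was -4.85 points and their median log2 ratio -0.57, beside -1.88 points and -0.19 over all genes. Ccnb2, for example, which encodes cyclin B2, was at 340 and 412 TPM in Ttex against 587 and 565 TPM in all OT-I (shift -1.27). Of the 30 DNA replication genes, 17 lay below all OT-I in both Ttex libraries and 5 above (51% and 31.1% of all genes). Their median shift was -2.05 points and their median log2 ratio -0.31. Large shifts to higher ranks were those of Fen1 (39.3, with 84.2% of exon bases shared) and E2f1 (25.2), where 6.8% of all genes had one. None ranked lower by a large shift.

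The metabolic and housekeeping lists held few large shifts, but several of these genes stand too high in the ranking to move far, and their levels differed. The 13 mitochondrially encoded genes summed to 55226 and 51449 TPM in Ttex, against 33089 and 28083 TPM in all OT-I. The cytosolic ribosomal protein genes summed to 165450 and 124183 TPM in Ttex, against 113331 and 101189 TPM in all OT-I, with 34 of 79 above and 7 below without overlap (31.1% and 51% of all genes). Among 79 cytosolic ribosomal protein genes 2 ranked higher, among them Rps10 (926 and 574 TPM in Ttex, against 5.39 and 7.34 TPM in all OT-I; shift 67.3), which shares 28.7% of its exon bases with another gene. None of the 41 members without shared bases had a large shift. Of 50 nuclear genes for oxidative phosphorylation, 33 lay below and 5 above all OT-I without overlap, against 51% and 31.1% of all genes (median -0.98 points), and Ndufb2 alone had a large shift (20.4). That call was lost without Ttex replicate 1 or all OT-I replicate 2. Of 13 mitochondrially encoded genes, mt-Nd4l ranked higher (22.9), with 18.4 points without all OT-I replicate 2 and 60.1 when ranked without division by length. Of 26 glycolysis and hypoxia genes, the stress response gene Ddit4 ranked higher (36.8) and Ndrg1 lower (-22.2), and the call of Ndrg1 was lost without Ttex replicate 2, without all OT-I replicate 2, or with a running median over GC content taken off. Of 26 genes for cholesterol and fatty acid synthesis, 2 ranked higher, among them Fdps of the sterol pathway (42.7), and none of the 16 members without shared exon bases had a large shift. Replication-dependent histone genes have no symbol in common between the tables.

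The largest shifts to higher ranks were mostly not genes of T cell biology. In order they were Rnaset2a (85.7 points), Gnas (83.3), Scamp4 (81.8), Ube2v1 (79.8), Rnaset2b (79.2), Tomm6 (78.7), Lime1 (77.7), Rbm42 (77.3), Galnt2 (77.2), Rnasek (74.4), Brms1 (71.4) and Ly6c1 (69.9). Gnas, which encodes the stimulatory G protein alpha subunit, was at 293 and 314 TPM in Ttex cells, against 1.21 and 1.37 TPM in all OT-I cells. Lime1, an adaptor of lymphocyte receptors, was at 297 and 238 TPM in Ttex, against 1.72 and 2.77 TPM. In GENCODE M21, 92.5% of the exon bases of Lime1 are shared with Zgpat, 90.0% of those of Galnt2 with Gm20388, 84.2% of those of Tomm6 with Gm21981 and 80.5% of those of Scamp4 with Gm49322. Rnaset2a and Rnaset2b, and Ly6c1 and Ly6c2, are near-identical copies, and their reads may be split or dropped by the counting. Ly6c2 was at 1147 and 871 TPM in Ttex, against 270 and 238 TPM in all OT-I (log2 ratio 1.99).

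Shared exon bases went with shifts to higher ranks across the whole table. Of genes with at least 25% of their exon bases in another gene there were 122 among the 689 higher genes (17.7%), 2 among the 172 lower genes (1.16%) and 511 among the 10139 tested (5.04%). Of the genes that share no exon base, 5.96% ranked higher by a large shift, and of those with over 75% shared, 75% did (24 of 32). GC content went with it as well. Among the decile of genes with the lowest GC content of the longest transcript, 3.06% ranked higher and the median shift was -5.32 points, and in the decile with the highest GC content 18.2% did, with a median of 5.07 points. Whether read assignment, GC content or the cells set these shifts was not tested.

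**Figure D4:**
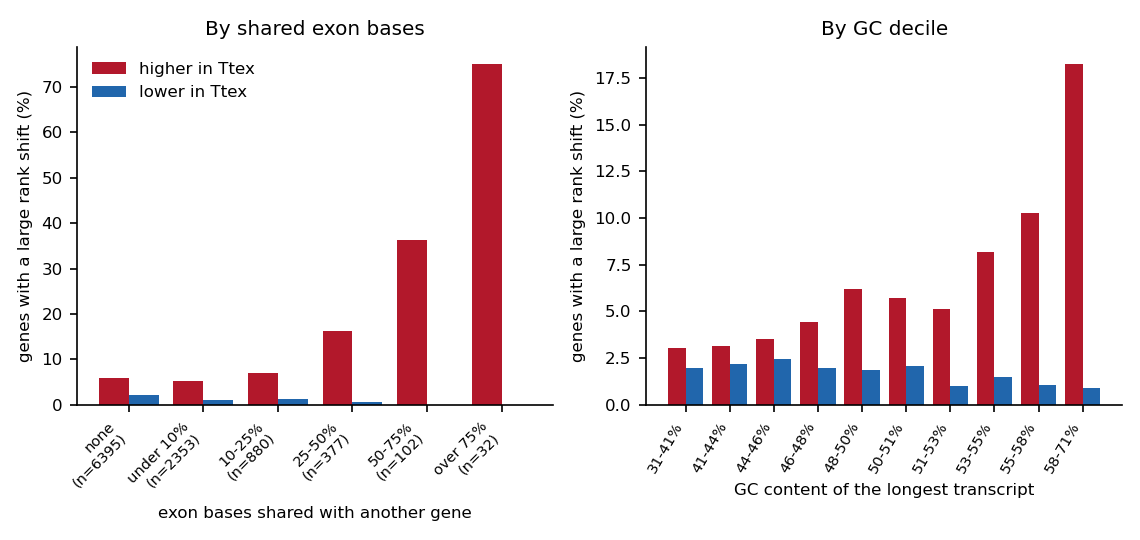
Percent of tested genes with a large rank shift to higher (red) or lower (blue) ranks in Ttex, by the share of exon bases in another gene (left, 6 bins with their number of genes) and by deciles of GC content of the longest transcript (right). The higher share climbs to 75% in the most overlapped bin and to 18.2% in the highest decile of GC content, while the lower share is at most 2.47% in any bin.

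Restricted to the 6395 genes that share no exon base, a property examined after the results were seen, 381 (5.96%) ranked higher and 134 (2.1%) lower. The leading higher genes were then Ly6c1, Tgfb1, Tatdn2 (67.5), Gstp2 (66.8), the globin gene Hba-a2 (65.0), Ubald2 (61.9), the pigment gene Tyrp1 (59.1), Srp54b (59.0), Dynll2 (57.7), Lsm14b (55.8), Taf15 (54.9) and Gpnmb (54.3). Gstp2, Srp54b and Hba-a2 also have close copies in the genome. Srp54b was uneven between its all OT-I replicates, at 8.87 and 0.77 TPM, against 65.2 and 94.9 TPM in Ttex.

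Of the 12 leading lower genes, 11 share no exon base with another gene, and the other, Prr5l, shares 1.57%. After Ccr6 and Dapl1 they were the serine protease gene Tmprss6 (-46.6), Gzmg, the myosin gene Myo1e (-46.1), the glycine decarboxylase gene Gldc (-45.6), Spry2 (-44.15), Prr5l (-43.2), Epdr1 (-42.85), Ccr8, Gzmd and Cd83 (-42.3). Spry2, a feedback inhibitor of receptor tyrosine kinase and ERK signalling, was at 10.3 and 14.1 TPM in Ttex cells, against 122 and 92.8 TPM in all OT-I cells. Cd83, an activation marker of lymphocytes and dendritic cells, was at 9.32 and 10.9 TPM in Ttex, against 64.1 and 77.9 TPM. Tmprss6 was at 9.24 and 10.4 TPM in Ttex, against 80.0 and 106 TPM. Slc16a11, a monocarboxylate transporter gene, is the 12th when genes with shared bases are left out (-40.2).

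Summed levels of markers of other cells differed between the populations, in both directions. The summed level of 16 melanoma markers was 581 and 671 TPM in the Ttex libraries, against 51.5 and 69.3 TPM in the all OT-I libraries. The deposited Ttex values hold no 0, so only the all OT-I libraries could show one, and no shared marker did. Of the 15 tested, 10 ranked higher by a large shift: the pigment genes Pmel (189 and 199 TPM in Ttex, against 9.14 and 14.99 TPM in all OT-I; shift 49.6), Tyrp1, Dct (50.2), Tyr (20.9), Mlana (35.4), Slc45a2 (47.4) and Slc24a5 (30.3), with Gpnmb, Sox10 (31.2) and Rab38 (29.8). Kit, which melanocytes share with other cells, ranked lower (-23.2). The list's median was 30.3 points, where 6.8% of all genes ranked higher by a large shift. Red blood cell genes summed to 239 and 172 TPM in Ttex, against 28.2 and 23.7 TPM in all OT-I, with all 4 tested, the globins Hba-a1 (35.2), Hba-a2, Hbb-bs (31.7) and Hbb-bt (46.6), ranking higher by a large shift. Ranked without division by length, Hbb-bs had a shift of 16.8 points, Hba-a1 of 22.3, Hba-a2 of 33.7 and Hbb-bt of 22.4.

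Markers of macrophages, monocytes and dendritic cells summed to 2273 and 2366 TPM in Ttex, against 3737 and 3633 TPM in all OT-I. Of 26 tested, 17 lay below and 7 above without overlap, where 51% of all genes lay below and 31.1% above. The median shift was -5.41 points, beside -1.88 over all genes. None of the shared markers was at 0 in either all OT-I library, and the deposited Ttex values hold no 0. C1qa, a complement gene of macrophages, was at 33.7 and 29.3 TPM in Ttex, against 99.3 and 103 TPM in all OT-I (shift -21.6; -18.1 without Ttex replicate 2). H2-Ab1, an MHC class II gene, was at 76.3 and 76.8 TPM in Ttex, against 237 and 238 TPM. Among the 7 above, C1qc, another complement gene, was at 24.4 and 21.8 TPM in Ttex, against 12.4 and 16.2 TPM in all OT-I (shift 9.07). Cd68 was at 77.5 and 86.3 TPM in Ttex, against 73.2 and 68.8 TPM (shift 2.22). Itgax, which activated T cells also express, ranked higher (24.2), as did Ccr2. The part of tumor, red blood and myeloid cell RNA in the other shifts was not tested.

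**Figure D5:**
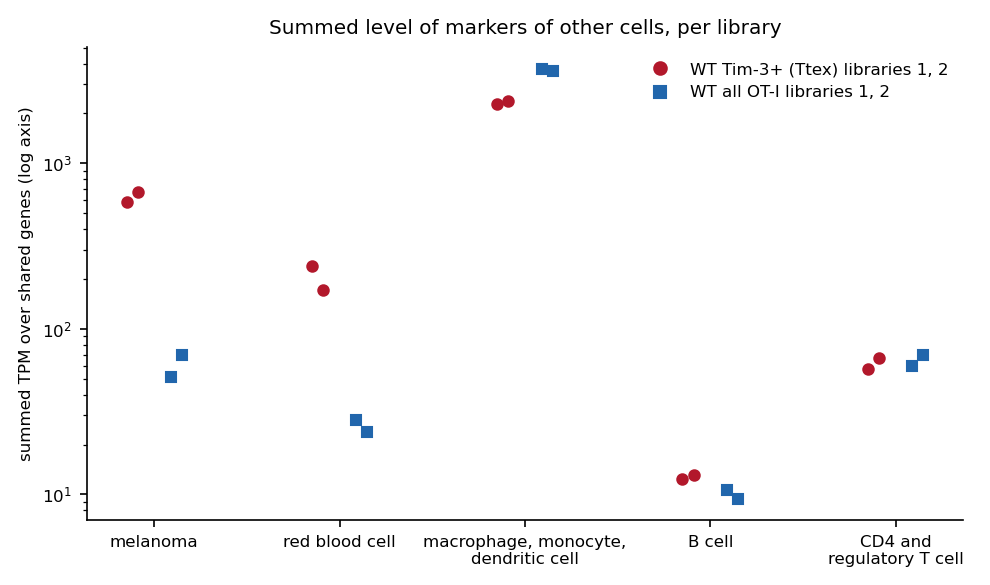
Summed TPM over the shared genes (log axis) of the markers of 5 other cell types in each library, Ttex in red on the left and all OT-I in blue on the right of each type. Melanoma markers lie at 581 and 671 TPM in Ttex against 51.5 and 69.3 TPM in all OT-I, red blood cell genes also lie higher in Ttex, and macrophage, monocyte and dendritic cell markers lie lower.

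Of the remaining cell types, CD4 and regulatory T cell markers summed to 56.9 and 66.9 TPM in Ttex and 59.3 and 69.5 TPM in all OT-I. Most of each sum was Il2ra (40.9 and 50.7 TPM in Ttex, 35.1 and 43.5 TPM in all OT-I). Of the 6 markers tested, 3 lay below and 2 above without overlap (51% and 31.1% of all genes). Foxp3, the regulatory T cell factor, was at 0.36 and 0.22 TPM in Ttex, against 5.19 and 5.32 TPM in all OT-I (shift -23.5). Ikzf4 was at 5.54 and 4.28 TPM in Ttex, against 10.97 and 12.1 TPM. Zbtb7b went the other way, at 6.28 and 6.93 TPM in Ttex, against 3.27 and 3.29 TPM. B cell markers summed to 12.4 and 13.1 TPM in Ttex and 10.6 and 9.45 TPM in all OT-I, and none of 3 tested had a large shift (median 3.28). Of 3 NK cell markers tested, Eomes had one. The neutrophil gene Il1b (shift -11.6), and Sparc (17.3) and Pecam1 (-12.9) of the fibroblast and endothelial list, were the only members tested there and had none.

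The libraries labelled Zbtb32 knockout (KO) give the same contrast in other libraries, prepared and tabled with the same division between populations. The KO cells were injected together with the WT cells, so these libraries may come from the same tumors. Agreement between the genotypes is therefore no independent check. In them 1069 of the same 10139 genes (10.5%) ranked higher in Ttex and 447 (4.41%) lower. Of the 689 genes higher in WT, 643 were also higher in the KO-labelled libraries, which is 93.3% of the WT and 60.1% of the KO-labelled calls. Of the 172 lower genes, 116 were shared, 67.4% of the WT and 25.95% of the KO-labelled calls, and no gene had opposite large shifts. The KO-labelled values stood beside the WT values as follows. Ccr6 had a shift of -71.2 in KO-labelled and -69.5 in WT libraries, Klf2 of 66.1 and 51.2, Tgfb1 of 68.7 and 68.1, and Gzmg of -49.9 and -46.1. Havcr2 was at 186 and 213 TPM in KO-labelled Ttex, against 601 and 612 TPM in KO-labelled all OT-I, lower in the Tim-3+ sort there too (shift -4.38).

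Some T cell genes had unlike shifts in the 2 genotypes, and this difference was not tested. Dapl1 had a shift of -12.6 points in KO-labelled and -54.6 in WT libraries. It was at 62.7 and 54.6 TPM in KO-labelled Ttex cells and at 219 and 199 TPM in KO-labelled all OT-I cells. Tcf7 had a shift of -3.21 in KO-labelled and -19.4 in WT libraries. Csf2 had -6.71 in KO-labelled and -32.5 in WT libraries. Ifng had 15.2 in KO-labelled libraries, at 549 and 549 TPM in Ttex against 93.6 and 89.2 TPM in all OT-I, and -0.32 in WT libraries. Melanoma markers summed to 1076 and 1334 TPM in KO-labelled Ttex, against 99.9 and 112 TPM in KO-labelled all OT-I, the same direction as in WT. Macrophage, monocyte and dendritic cell markers went the other way from WT, at 3952 and 3955 TPM in KO-labelled Ttex against 2377 and 2393 TPM in KO-labelled all OT-I.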

How the data were processed

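Polyadenylated RNA of OT-I cells sorted from tumors was sequenced at BGI, as the labels' protocols state. Per the submitters' processing notes, the tools were DESeq2, RSEM, featureCounts, Bowtie2 and Trim Galore 0.4.4 on mm10. Which of them made which table is not recorded there. The authors deposited 2 tables. The Ttex table holds a normalized signal per gene with the form of counts divided by a size factor, since 100% of the deposited values were whole reads within 0.01 after rescaling. The smallest value, a single step, was found in all 4 libraries for 173 rows, while 16 rows summed to 5 steps. Whether 1 was added to every count is not recorded, and recovered Ttex reads would then be 1 too high. With 1 step taken off every Ttex value, 689 genes ranked higher and 174 lower by a large shift. The deposited all OT-I values have the form of FPKM, with no unit in the header. With GENCODE M21 merged exon lengths (mm10), 98.3 and 98.4% of values under 1000 reads in the WT libraries were whole within 0.1 read.

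The tables hold 13126 and 17495 rows and share 11265 symbols, of which 11238 were ranked after symbols repeated in the Ttex table and symbols with no length were left out. There are 1831 genes in the Ttex table only and 6230 in the all OT-I table only (596 with a mean of at least 1 FPKM), and these were not compared. Levels, percentiles and large rank shifts were computed as the report defines them, with Python 3.11.15, pandas 2.3.3 and numpy 2.4.6. GC content is that of the longest transcript in M21, and exon bases are shared where another gene's exon covers them on either strand. The calculation was tested on simulated data, with changed genes of moderate level, since changes of genes nearer the top of the ranking were partly missed. The populations were tabled separately in different units, so the rank shifts carry no test (edgeR on recovered reads, an added alternative, takes population and table together), and no interval covers more than the spread of 2 libraries.

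Named genes are a fixed list of 14, the 12 largest shifts each way among genes at 5 TPM or more in the higher population (leaving out unnamed models, pseudogenes and receptor genes), and for each of 28 lists up to 4 members with a large rank shift or else the 2 most abundant. Genes outside this rule, such as Ccl5, Ccr7, Cxcr6, Gzmc, Batf, Zbtb32, Fos, H2-Ab1 and Ly6c2, and list members past the first 4, were chosen after their values were seen. Members and lists were chosen with earlier results of these data known. Settings on scale, filters, threshold, length and left-out libraries were planned. Those on shared exon bases, GC content, synonyms, KO-labelled libraries and edgeR 4.0.16 on recovered reads were chosen after seeing the data.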

Additional observations from a re-analysis of the deposited data

Results flagged for a closer look

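C1qa, a complement gene of macrophages, had opposite shifts in the 2 genotypes. Both KO-labelled Ttex libraries lay above both KO-labelled all OT-I libraries (shift 18.6), and both WT Ttex libraries lay below both WT all OT-I libraries (shift -21.6). Il1b, a cytokine gene of myeloid cells, did the same, with a shift of 24.2 in KO-labelled and -11.6 in WT libraries. The difference was not tested for either gene. In the data outside the comparison, Rn18s-rs5, a ribosomal RNA gene of the Ttex table with no counterpart in the all OT-I table, took 1.43% of the Ttex table in WT replicate 1 and 0.699% in WT replicate 2.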

How the results depend on the processing

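The median shift of all genes, -1.88 points, was -2.01 to -1.50 when each library was left out in turn. It was 0 with a running median over gene length or over GC content taken off, which fixes it at 0, -2.40 for genes that share no exon base, -0.48 with both of those steps and -2.43 in the KO-labelled libraries. The genes higher and lower in Ttex numbered 689 and 172, with 670 to 711 and 163 to 216 when a library was left out. They numbered 1582 and 1542 at 10 points, 285 and 47 at 30 points, and 1069 and 447 in the KO-labelled libraries. With no shared exon base there were 381 higher genes among 6395 tested, and 401 higher and 86 lower with GC content also taken off. A count test (edgeR quasi-likelihood, adjusted p under 0.05) on recovered reads called 3296 higher and 2993 lower of 11205, and it takes population and table together. With the replicate number as a block it called 3397 higher and 3119 lower. Whether same-numbered libraries of the 2 populations are paired is not given in the labels. Their replicate differences correlated by 0.0427 over 11205 genes, which cannot decide it with 2 replicates processed separately. Of the 78 named genes with a large rank shift, 68 kept it in every one of the WT settings in which they were ranked, leaving aside the settings that change the threshold itself, and 10 lost it in at least 1. Some of these settings could lose no call. The level filters and the restriction to genes that share no exon base keep the same ranks for the genes they hold. Genes with shared exon bases, such as Lime1 and Galnt2, were not in the settings restricted to genes without them. Over all genes, 611 of the 689 higher and 117 of the 172 lower ones kept their large shift when ranked without division by length. With a running median over GC content taken off, 637 and 105 did, and over gene length, 689 and 125. The median shift was negative in every length decile (-3.09 to -1.32 points). Taking off the running median over length therefore raises most shifts, and that setting could hardly lose a higher call. C1qa (18.6) and Foxp3 (0.32, with overlapping groups) had the opposite sign in the KO-labelled libraries. The cause was not tested. The lowest levels, such as Ccr6 in Ttex with 14 and 9 reads, carry counting error that the ranks do not show.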

Other observations

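Some genes with no large rank shift, among them genes of antigen receptor signalling, still had wide level differences. Grb2, an adaptor of receptor signalling, was at 263 and 314 TPM in Ttex cells, against 55.5 and 55.1 TPM in all OT-I cells (shift 18.5, log2 ratio 2.38). Dusp5, a phosphatase of ERK, was at 347 and 356 TPM in Ttex, against 70.2 and 76.1 TPM (shift 15.1). Fyn, a Src family kinase, was at 224 and 261 TPM in Ttex, against 68.0 and 74.0 TPM (shift 13.6). The receptor subunit genes were uneven: Cd3e was at 981 and 1112 TPM in Ttex, against 390 and 381 TPM in all OT-I, while Cd3g was at 618 and 753 TPM in Ttex, against 1229 and 1090 TPM. Myc, a growth regulator, was at 160 and 176 TPM in Ttex, against 370 and 403 TPM (log2 ratio -1.20). Spp1, the osteopontin gene, was at 184 and 228 TPM in Ttex, against 870 and 820 TPM (log2 ratio -2.03). These genes were chosen after their values were seen.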
